A study of Mus musculus with 2 samples.

Results

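The Dlx genes are the mouse relatives of Drosophila Distal-less and encode homeobox transcription factors. All 6 of them, Dlx1 to Dlx6, were named by the H3K27me3 regions of rib chondrocytes, and they were chosen by gene name from the list of regions. Together they had 11 of the 2017 regions in the list, and were 6 of its 922 genes. The data came from 1 H3K27me3 ChIP-seq library and 1 input library, without replicates. Chondrocytes were isolated from the ribs of 11 wild-type CD1 mice at postnatal day 2.5, pooled, and grown overnight with 5% serum on 2 dishes of 10 cm. The input library was made from the same kind of chromatin without the antibody. As these cells are a culture pooled over animals, variation between mice was not measured.

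H3K27me3, the trimethylated lysine 27 of histone H3, is laid down by PRC2 and is found on silent developmental genes. The Dlx genes lie in the mouse genome as 3 linked pairs, Dlx1/2, Dlx3/4 and Dlx5/6, in which the genes of a pair point towards each other. Dlx1 and Dlx2 direct the making of inhibitory neurons in the forebrain, Dlx3 acts in teeth, hair, placenta and bone, and Dlx5 and Dlx6 give the lower jaw its identity and promote the maturation of cartilage and bone cells. Together, Dlx1, Dlx2, Dlx5 and Dlx6 pattern the jaws in the branchial arches.

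In the list, each region comes with its position on mm9, the number of ChIP and input sequence tags in it, the height of the smoothed ChIP profile, and any gene up to 5000 bp away. No region had a ChIP height under 8 or fewer than 20 ChIP tags, which leaves weaker marking undetected. All 6 Dlx genes had at least 1 region, whereas 3.95% of the protein-coding genes of RefSeq on the autosomes and the X chromosome were named. Since the genes were picked with this list in view, the 6 of 6 is a description. Of the 13 chondrocyte markers, which include Sox9, Col2a1 and Acan, 0 were named. Of the 8 markers of fibroblasts and osteoblasts 1 was named, Col1a1, and of the 6 skeletal muscle markers 2 were named, Pax3 and Pax7. For endothelial and blood markers the count was 0 of 3 in both cases. This mark does not measure expression, so these counts only say where it was listed.

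Sequences at 3 starts show what lay inside and outside the regions. They are the 250 bases before the start of Dlx1 at chr2:71529195-71529444 (+), of Dlx2 at chr2:71546755-71547004 (-) and of the antisense transcript Dlx6as at chr6:6865151-6865400 (-), all from RefSeq on GRCm38.p6. Each is written 5′ to 3′, and capitals mark the dinucleotide CG, whose dense clusters are the places where PRC2 is commonly found. RefSeq promoter sequences were at hand for Dlx1 and Dlx2 only among the Dlx genes. The last sequence has the RefSeq symbol Dlx6os2, which was taken to be the Dlx6as of the list. GRCm38 positions were not compared with the mm9 positions of the regions. Within each build, however, the starts of Dlx1 and Dlx2 were 17309 bp apart. Those of Dlx6os1 and Dlx6as (Dlx6os2 in RefSeq) were 4383 bp apart in both builds.
Dlx1: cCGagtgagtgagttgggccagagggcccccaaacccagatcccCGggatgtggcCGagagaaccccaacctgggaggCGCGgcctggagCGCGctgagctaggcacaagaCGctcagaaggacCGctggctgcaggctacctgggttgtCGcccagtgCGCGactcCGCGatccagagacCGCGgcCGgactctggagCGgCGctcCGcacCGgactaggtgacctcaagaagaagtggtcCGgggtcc
Dlx2: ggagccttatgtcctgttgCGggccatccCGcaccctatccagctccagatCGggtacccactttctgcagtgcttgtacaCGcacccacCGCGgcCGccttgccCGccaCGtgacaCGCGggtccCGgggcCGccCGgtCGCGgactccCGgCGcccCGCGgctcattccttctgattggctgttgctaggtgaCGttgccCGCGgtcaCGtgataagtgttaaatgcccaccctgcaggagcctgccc
Dlx6as: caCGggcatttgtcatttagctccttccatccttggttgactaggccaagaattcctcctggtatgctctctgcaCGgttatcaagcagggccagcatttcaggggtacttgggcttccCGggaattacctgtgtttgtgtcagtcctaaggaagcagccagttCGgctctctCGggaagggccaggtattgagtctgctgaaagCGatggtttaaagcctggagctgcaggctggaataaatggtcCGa
CG, which reads the same on both strands, occurred 22 times before Dlx1, 24 times before Dlx2 and 7 times before Dlx6as. In the same window, 92.1% of the 32851 RefSeq promoters held at least 1 CG and the median was 6. At least as many as at Dlx1 were found in 14.8% of them, at least as many as at Dlx2 in 12%, and at least as many as at Dlx6as in 46.3%. The start of Dlx6as lay inside a region, whereas those of Dlx1 and Dlx2, whose upstream bases hold more CG, lay outside.

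The marked regions lay upstream of the Dlx genes or inside them, some distance from their starts. A region covered the 5′ end of its Dlx gene in 0 of 11 cases, close to the low share of 6.06% over all combinations of a region and a gene in the list. The nearest region lay 626 bp from a 5′ end (Dlx3) and the farthest 4190 bp (Dlx5). In 8 of 11 cases the distance was at most 2500 bp, compared with 40.7% of all combinations. These include long genes, where a region can lie far from the 5′ end, as at Cadps2 with 576797 bp. Gene length was not taken into account in these comparisons. Upstream regions were seen at 5 of the genes, with 6 regions in all, and only Dlx5 had none. The other 5 regions overlapped their own gene, 5 of 11 compared with 56.9% of all combinations, and only Dlx2 had none of these. Positions of the 5′ ends were worked out from the distances in the list. For Dlx2 and Dlx5, with a single region each, this used the known orientation of the pairs.

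**Figure D1:**
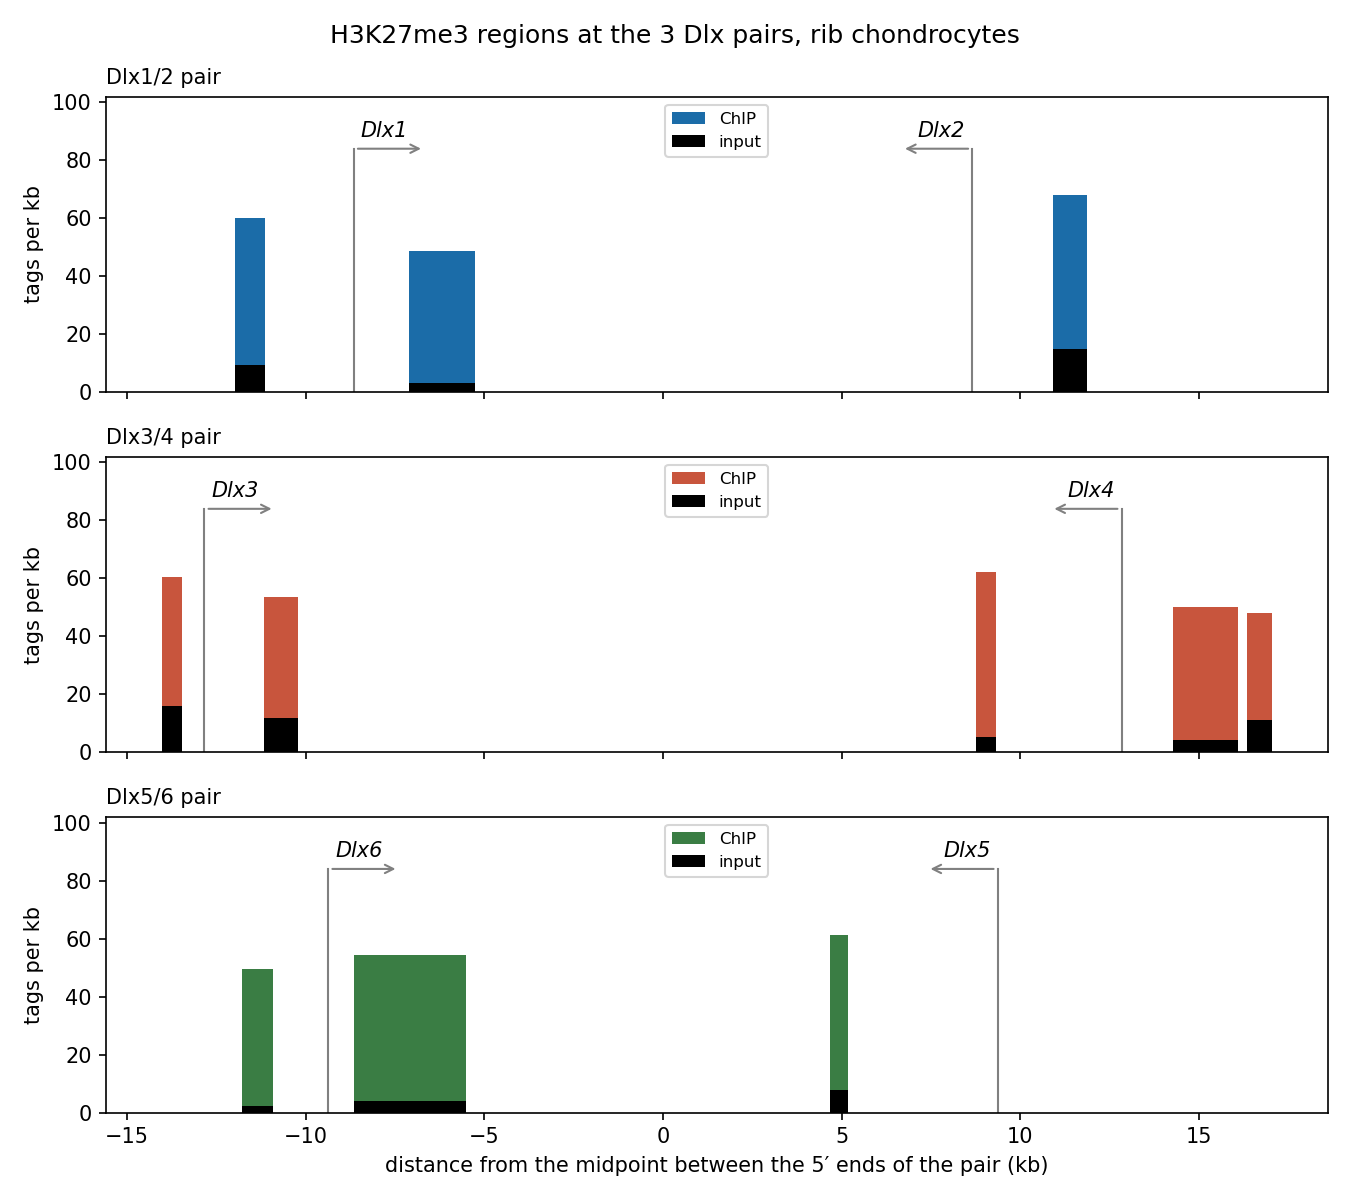
H3K27me3 regions along the 3 Dlx pairs, with the distance in kb from the midpoint between the 5′ ends of each pair on the horizontal axis and tags per kb on the vertical axis. Each coloured bar is the ChIP density of 1 region and the black bar in front of it the input density, both drawn from 0, and arrows mark the 5′ ends and the direction of transcription. No arrow starts within a bar.

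Dlx1/2, on chromosome 2, had 3 regions with 3631 bp in all. The first began 3320 bp and ended 2471 bp upstream of Dlx1 (71364182 to 71365031) and held 51 ChIP tags and 8 input tags. The second, inside Dlx1 from 1547 to 3390 bp after the 5′ end (71369049 to 71370892), had 90 ChIP tags over 6 of input. The third lay 2259 to 3198 bp upstream of Dlx2 (71387070 to 71388009) and held 64 ChIP tags and 14 input tags. In the same order, ChIP tags exceeded input tags 6.38 times (95% Clopper-Pearson interval 3.0 to 15.6), 15.0 (6.63 to 42.0) and 4.57 (2.54 to 8.83), so the 3 intervals overlapped. These ratios were left without a correction for library depth, and the intervals reflect counting error only. The region at Dlx2 had the tallest ChIP profile of the Dlx genes, with a height of 11.1, above 95.7% of all regions. Its input height of 2.94 was also above 98.9% of all regions, and its input density of 14.9 tags per kb above 96.1%. Whether the high input contributed to the height was not tested.

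Between the region inside Dlx1 and that upstream of Dlx2 were 16178 bp without a listed region, a stretch in which the start of Dlx2 lies. Beyond Dlx2, 3216 bp further from the genes, was another region (71391225 to 71392059) with 49 ChIP tags and 4 input tags, which the list assigns to no gene. It was the only other region within 100000 bp of the pair. The antisense transcript Dlx1as overlapped the region inside Dlx1, with its own 5′ end 5056 bp away. Tags in that region therefore cannot be told apart between Dlx1 and Dlx1as. The upstream region of Dlx1 also named Metapl1, a mitochondrial methionine aminopeptidase, at 934 bp.

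Dlx3/4, on chromosome 11, had the most regions, 5 with 4581 bp in all, and the lowest median ChIP height, 8.36 compared with 9.50 at Dlx1/2 and 9.01 at Dlx5/6. At Dlx3, the region from 1189 to 626 bp upstream (94980260 to 94980823) held 34 tags of ChIP and 9 of input. The region inside Dlx3, from 1678 to 2613 bp after the 5′ end (94983127 to 94984062), held 50 ChIP tags and 11 input tags. Both had more input than most regions, with 16.0 and 11.8 tags per kb, above 97.0% and 89.5% of the list. At Dlx4, 35 ChIP tags and 3 input tags were found inside the gene, 3514 to 4077 bp after the 5′ end (95003038 to 95003601). Upstream of it, 91 ChIP tags and 8 input tags were found from 1447 to 3258 bp (95008562 to 95010373). A further 34 ChIP tags and 8 input tags were found from 3498 to 4207 bp (95010613 to 95011322), separated from the former by only 240 bp. The 2 genes thus each had a region on either side of the 5′ end, with 18976 bp free of regions between them. Ratios were 3.78 (1.77 to 8.96) and 4.55 (2.34 to 9.68) at Dlx3, and 11.7 (3.68 to 59.3), 11.4 (5.53 to 27.1) and 4.25 (1.93 to 10.6) at Dlx4 in the order given. Again all intervals overlapped.

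ChIP heights at Dlx3/4 ranged from 8.05 to 8.79, and none of these regions reached a height of 10. For the Dlx genes as a whole this height was reached by 2 of 11 regions, compared with 13.1% of the list. No further region was listed within 100000 bp of this pair. The nearest on the Dlx3 side, 182956 bp away, lay 280 bp from the 5′ end of Col1a1, the main collagen of bone and fibroblasts, with 52 ChIP tags and 2 input tags. On the other side the nearest was 436935 bp away, 79 bp from the 5′ end of Ngfr, a neurotrophin receptor.

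Dlx5/6, on chromosome 6, had 3 regions with 4514 bp and held the broadest region of the family. This region lay inside Dlx6, from 709 to 3850 bp after the 5′ end (6814043 to 6817184), and was 3141 bp long, longer than 95.5% of all regions. It held 171 ChIP tags and 13 input tags, and its rank of 79 in the list was the best of the 11. The second region of Dlx6 lay 1535 to 2403 bp upstream (6810931 to 6811799) with 43 ChIP tags and 2 input tags. At Dlx5 the only region lay 4190 to 4695 bp after the 5′ end (6827373 to 6827878) with 31 ChIP tags and 4 input tags. It was the shortest of the 11, with 505 bp. Ratios were 13.2 (7.49 to 25.2) and 21.5 (5.60 to 183) at Dlx6, and 7.75 (2.74 to 30.2) at Dlx5, with overlapping intervals. The start of Dlx5 and its upstream flank were thus without a listed region.

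The Dlx6 regions are shared with noncoding transcripts. Dlx6as, with 7 CG in its upstream bases, has its 5′ end inside the broad region. Dlx6os1, also known as Evf2, a long RNA that acts on the Dlx5/6 enhancers in the ventral forebrain, overlapped both Dlx6 regions and started 2349 bp from the broad one. A further region named Dlx6os1 alone (6800117 to 6803593). It was 3476 bp long and held 184 tags of ChIP and 18 of input (ratio 10.2, 6.29 to 17.6), and lay 7338 bp from the nearest Dlx6 region. On the Dlx5 side the next listed region of chromosome 6 was 16383024 bp away, and the list assigns it to Cadps2.

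**Figure D2:**
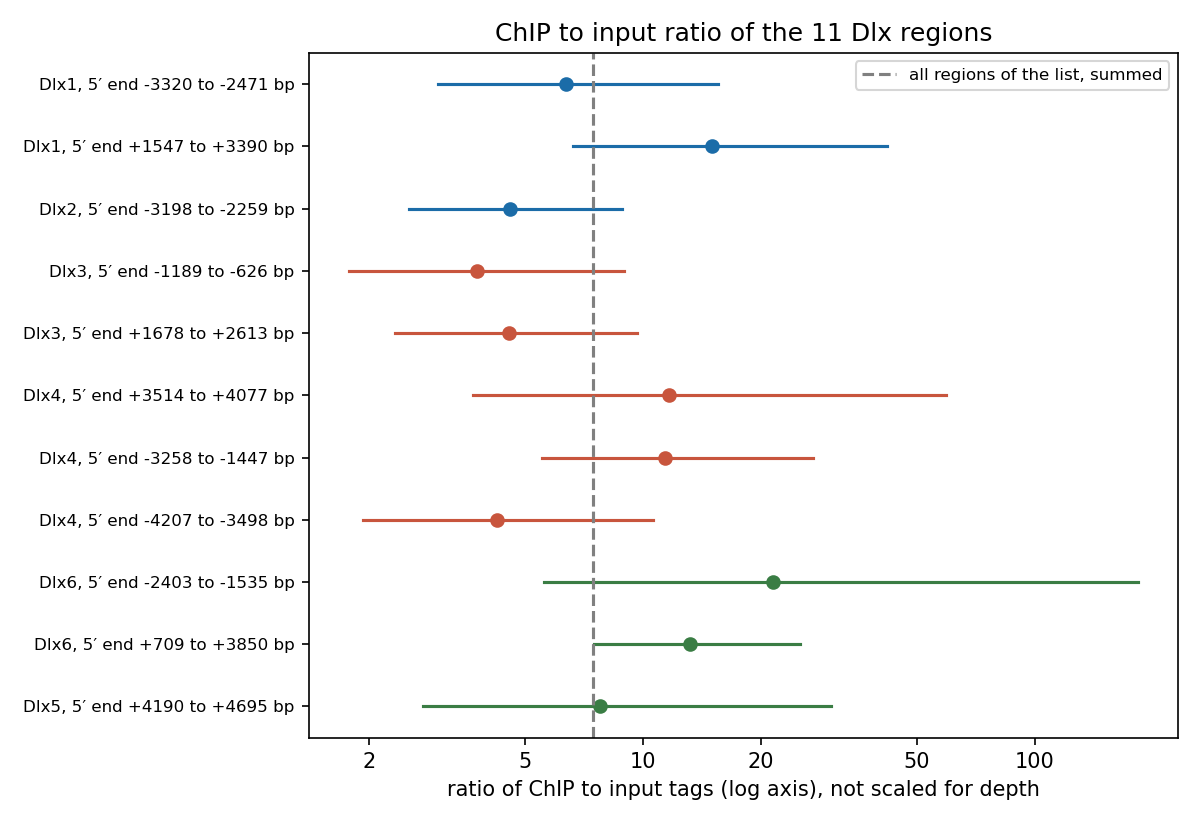
Ratio of ChIP to input tags on a log axis for each Dlx region, named by its gene and its position from the 5′ end in bp, with negative positions upstream. Points are the ratios, bars the 95% Clopper-Pearson intervals, colours the pairs, and the dashed line the ratio of 7.47 over all regions. The line crosses 10 of the 11 intervals and lies just below that of the broad Dlx6 region, 7.49 to 25.2.

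To ask whether the pairs differed, tags were summed over the regions of each pair. Dlx1/2 had 205 tags of ChIP and 28 of input, for a ratio of 7.32 (4.92 to 11.3). Dlx3/4 had 244 and 39, a ratio of 6.26 (4.45 to 9.01), and Dlx5/6 had 245 and 19, a ratio of 12.9 (8.08 to 21.8). The ratio at Dlx5/6 was 2.06 times that at Dlx3/4 (95% interval 1.12 to 3.88; two-sided Fisher's exact test, adjusted p = 0.0380 over 3 comparisons). ChIP density was alike in both, 54.3 and 53.3 tags per kb, while input density was 4.21 at Dlx5/6 and 8.51 at Dlx3/4. Regions were listed by their ChIP signal, and all regions together held 54.2 ChIP tags per kb. The difference in ratio thus lay mainly in input, with 19 and 39 tags. Whether the pairs differ in strength of marking was not tested. Dlx5/6 against Dlx1/2 gave 1.76 times (0.918 to 3.44; Fisher's exact test, adjusted p = 0.135), and Dlx1/2 against Dlx3/4 gave 1.17 times (0.675 to 2.05; Fisher's exact test, adjusted p = 0.600). These tests compare tags of the same 2 libraries and say nothing of other cultures. With only regions of a −log10 q-value of at least 50 kept, Dlx3/4 against Dlx5/6 was 0.865 times (Fisher's exact test, adjusted p = 0.813). With only regions overlapping the gene, it was 0.511 times (Fisher's exact test, adjusted p = 0.151), close to the 0.485 times over all regions. Neither passed the threshold of 0.05, with fewer regions and tags left. With input raised to the floor of 9.21 tags per kb that the deposited ratio uses, the ratios were 5.89 at Dlx5/6 and 4.89 at Dlx3/4. The other comparisons also changed with these limits. With only regions of a height of at least 10, Dlx1/2 against Dlx5/6 passed the threshold at 0.348 times (Fisher's exact test, p = 0.0132). Dlx3/4 then had no regions, so this was the only comparison left and its p-value was not corrected for others. It set the region at Dlx2 against the broad region of Dlx6 alone. With only regions overlapping the gene, Dlx1/2 against Dlx5/6 turned to 1.26 times (Fisher's exact test, adjusted p = 0.815). Dlx1/2 against Dlx3/4 turned to 0.644 times under the limit on the q-value (Fisher's exact test, adjusted p = 0.509).

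By gene, sums of tags gave the order Dlx6 (214 ChIP and 15 input tags, ratio 14.3, interval 8.46 to 25.9), Dlx1 (141 and 14, 10.1, 5.81 to 18.9), Dlx4 (160 and 19, 8.42, 5.22 to 14.4), Dlx5 (31 and 4, 7.75, 2.74 to 30.2), Dlx2 (64 and 14, 4.57, 2.54 to 8.83) and Dlx3 (84 and 20, 4.20, 2.56 to 7.22). Neighbours in this order all had overlapping intervals. Only Dlx6 and Dlx3, at its ends, had intervals that did not overlap. Their input densities were 3.74 and 13.4 tags per kb. In the deposited ratio, with input raised to the floor, the highest median over the regions of a gene was 6.66, at Dlx5. Dlx6 had a median of 5.65 and Dlx3 the lowest, 4.16. In covered sequence the order was Dlx6 with 4009 bp, Dlx4 with 3083 bp, Dlx1 with 2692 bp, Dlx3 with 1498 bp, Dlx2 with 939 bp and Dlx5 with 505 bp. Among the 922 genes Dlx6 was 144th and Dlx5 841st by this measure.

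**Figure D3:**
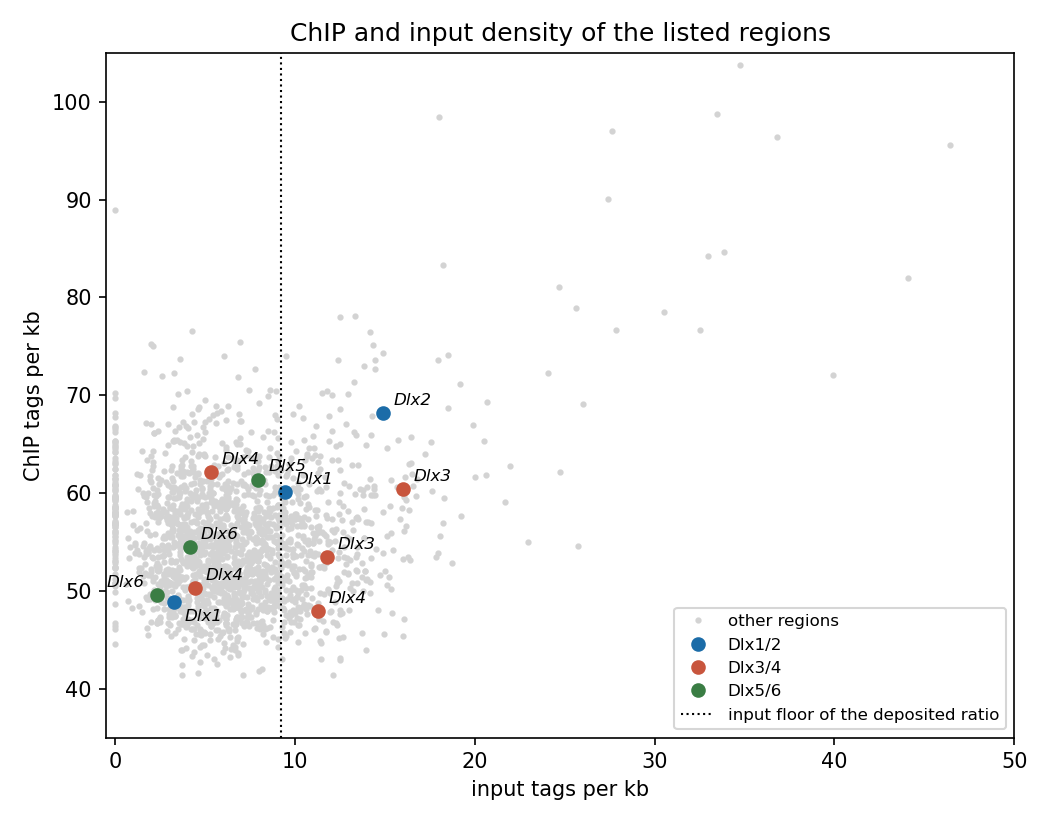
ChIP tags per kb (vertical axis, starting at 35) against input tags per kb (horizontal axis) for all 2017 regions, with the Dlx regions coloured by pair and labelled, and the dotted line at 9.21 input tags per kb. The Dlx regions sit within the cloud of other regions, at 48.0 to 68.2 ChIP tags per kb and 2.30 to 16.0 input tags per kb.

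Against the whole list, the Dlx regions had a median ChIP density near that of all regions. Single regions varied in both ChIP and input density. Across the 11 regions, ChIP density exceeded that of 11.6% to 96.4% of the list, and input density that of 10.4% to 97.0%. With 694 tags of ChIP and 86 of input, the ratio of the Dlx regions was 8.07 (6.44 to 10.2). The 2006 other regions gave 7.46 (7.35 to 7.58), inside that interval. The median length was 868 bp, compared with 1066 bp over the list, and the median ChIP density was 54.4 compared with 54.5 tags per kb. The deposited tag enrichment, in which input is raised to a floor of 9.21 tags per kb, ranged from 3.78 (Dlx3, upstream) to 6.74 (Dlx4, inside the gene), with a median of 5.38 against 5.70. Input lay below this floor in 6 of 11 Dlx regions, compared with 76.9% of the list. Other homeobox families had similar ratios, 7.73 (6.82 to 8.79) over 25 regions of Lhx genes and 8.78 (8.07 to 9.58) over 49 of Hox genes, both overlapping the interval of the Dlx genes. Median lengths in these families were 1446 and 1631 bp, and this difference from the Dlx regions was not tested.

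Genes that act with Dlx genes in other tissues were also on the list. Of 30 skeletal and craniofacial partners, 16 were named, with 35 regions. All Msx genes, homeobox factors that bind similar DNA sites and can oppose Dlx proteins, were among them. Msx1 had 46 ChIP tags and 0 input tags, Msx2 had 208 and 24, and Msx3 had 116 and 4. Hand2, a lower jaw factor downstream of Dlx5 and Dlx6, had 341 ChIP and 35 input tags over 4 regions. Barx1, a jaw and tooth homeobox gene, had 368 and 32, Pitx1 had 214 and 18, and Gsc, another arch gene, had a single region with 25 and 5, which lay 4760 bp from its 5′ end. Also named were, among others, Hand1, Barx2, Alx4, Tcfap2a, Tbx1, Bmp4 and Ihh, and among those not named were Runx2, Sp7 and Col10a1. Ihh, the hedgehog ligand of prehypertrophic chondrocytes, had 63 ChIP and 16 input tags (ratio 3.94, 2.25 to 7.30), 4579 bp from its 5′ end.

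Of 14 forebrain partners, 10 were named, with 21 regions. They included Gad1 and Gad2, which make the transmitter GABA, with 124 ChIP tags and 17 input tags and with 42 and 9. Slc32a1, the transporter that loads GABA into vesicles, had 58 and 6. Lhx6, a factor of cortical interneurons, had 334 and 50, Gsx2, which acts ahead of Dlx2 in the ventral forebrain, had 450 and 52, and Nkx2-1 had 112 and 8. Lhx8, Gbx2, Sp8 and Isl1 were named as well, while Gsx1 and Sp9 were among those that were not. Both lists stand beside the background of 3.95% of protein-coding genes, and were drawn up with earlier results of these data known. Of the 19 linked transcripts and neighbours of the pairs, 3 were named, Dlx1as, Dlx6as and Dlx6os1.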

How the data were processed

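The deposited list of 1 H3K27me3 ChIP library against 1 input library was used. The authors mapped reads to mm9 with the DNA Nexus mapper and called regions with QuEST, whose versions and settings are not given in the sources used here. Per the file headers and values, the deposited counts are whole numbers of tags per region without normalization. The deposited ratio (tag enrichment) divides ChIP by input tags, with input raised to a floor of 9.21 tags per kb, as worked out from the values. The height, a deposited signal, is the peak of the smoothed tag profile, on a scale not stated, and q-values were deposited as −log10. Total depth is not in the list, and positions are printed as listed.

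Rows naming Dlx1 to Dlx6 were taken, and none of the 11 regions named 2 Dlx genes. Ratios of summed tags were given 95% Clopper-Pearson intervals, and pairs were compared by two-sided Fisher's exact test with Benjamini-Hochberg adjustment and a conditional odds ratio interval. Tags were treated as independent, which PCR copies are not. With 1 library per group there is no replicate error. The members and lists were chosen with earlier results of these data known. Named genes were the members, listed genes of the fixed lists, genes sharing or neighbouring a region, and the 2 genes above and the 2 below each pair in bp covered. Of the 922 gene names, 912 matched RefSeq (GRCm38.p6), which also gave the promoter sequences, CG counts and distances between starts. Some genes of the lists are not reported here. Alternatives were limits on height (10), −log10 q (50) and position (overlap, 2500 bp), merging within 3000 bp, the input floor and 0.5 added tags. Statistics used scipy 1.17.1, tables pandas 2.3.3 and numpy 2.4.6, and plots matplotlib 3.10.9, all under Python 3.11.15.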

Additional observations from a re-analysis of the deposited data

How the results depend on the processing

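Of 33 recomputed counts, ratios and differences between pairs, 20 kept their side of the threshold, their interval or a value within 1.5 times. With only regions of a ChIP height of at least 10, 2 regions at 2 genes remained, that of Dlx2 and the broad one of Dlx6. The Dlx1/2 ratio was 4.57, and Dlx1/2 against Dlx5/6 passed the threshold at 0.348 times (Fisher's exact test, p = 0.0132). No ratio could be given for Dlx3/4, which lost all regions. The p-value was therefore from the only comparison left and was not corrected for others. With only regions of −log10 q of at least 50, 5 regions remained, the Dlx3/4 ratio was 11.4, Dlx1/2 against Dlx3/4 reversed to 0.644 times (Fisher's exact test, adjusted p = 0.509), and Dlx3/4 against Dlx5/6 was 0.865 times (adjusted p = 0.813, exact test). With only regions overlapping the gene, 5 regions remained, the Dlx1/2 ratio was 15.0, Dlx1/2 against Dlx5/6 reversed to 1.26 times (Fisher's exact test, adjusted p = 0.815), and Dlx3/4 against Dlx5/6 was 0.511 times (adjusted p = 0.151, exact test). These limits leave 0 to 3 regions per pair. With input raised to the floor, the Dlx5/6 ratio was 5.89, since all its regions lay below the floor. Merging gave 8 regions. No paired analysis was possible because each group holds 1 library. The missing total depth and the counts of 2 to 14 input tags per region limit every ratio.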

Other observations

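By protein sequence the Dlx genes fall into 2 classes, with 1 gene of each pair in either class, namely Dlx1, Dlx4 and Dlx6, and Dlx2, Dlx3 and Dlx5. Grouped in this way, a choice made after the values were seen and therefore not tested, the regions of Dlx1, Dlx4 and Dlx6 were 7 with 9784 bp, and those of Dlx2, Dlx3 and Dlx5 were 4 with 2942 bp. The ratio of ChIP to input tags was 10.7 (515 and 48 tags, 95% Clopper-Pearson interval 7.97 to 14.7) in the first and 4.71 (179 and 38 tags, 3.30 to 6.87) in the second. Within each pair the gene of the first class had more covered sequence and the higher ratio of summed tags. The median deposited tag enrichment, with its input floor, kept this order at Dlx1/2 and Dlx3/4. At Dlx5/6 it was reversed, with 6.66 at Dlx5 and 5.65 at Dlx6. Input density was 4.91 tags per kb in the first class and 12.9 in the second, and ChIP density was 52.6 and 60.8. The part of input density in the difference in ratio between the classes was not tested.

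In covered sequence, each pair, summed over both of its genes, was set beside single genes. Those nearest to Dlx1/2 (3631 bp) were Alox12 and Npy above it and Crb3 and Dennd1c below. Crb3 and Dennd1c had the same values, 2 regions of 3626 bp in all with 193 ChIP and 26 input tags, and so may rest on the same regions. Nearest to Dlx3/4 (4581 bp) were Nkx2-2 and Wnt1 above and Grin2c and Lhx2 below. For Dlx5/6 (4514 bp) they were Lhx2 and Foxd2 above and Gbx2 and Islr2 below. Their ratios ranged from 6.0 at Lhx2 and Islr2 to 17.0 at Npy. A likeness over samples could not be measured in 1 library.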
